A study of Mus musculus with 151 samples.

Results

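The genes described are the matrix proteases, their inhibitors and the lysyl oxidases of the mouse. They were chosen by name: the Mmp genes, Timp1 to Timp4, the numbered Adamts and Adamtsl genes, Lox, and Loxl1 to Loxl4. Of 35976 gene names in each of 7 count tables, 55 were members, and all 55 stood in all 7 tables. The rule uses names and no measured value, but it was set with earlier results of these data known.

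Matrix metalloproteinases (MMPs) cleave collagens and other proteins of the extracellular matrix, and the tissue inhibitors of metalloproteinases (TIMPs) bind and block them. The ADAMTS proteases cut proteoglycans or trim procollagen, the ADAMTS-like proteins share their ancillary domains but have no catalytic domain, and the lysyl oxidases cross-link collagen and elastin. In the ovary these enzymes are known from the remodelling that goes with follicle growth, ovulation, and the formation and loss of the corpus luteum.

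The study compared female F1 offspring of CF-1 females and B6/SJL males that were conceived naturally (Natural) or by IVF, and asked what the mode of conception leaves behind in the ovary and its germ cells. IVF embryos came from superovulated CF-1 females, were fertilized in HTF medium, grown to the blastocyst stage in KSOM with amino acids and transferred nonsurgically to pseudopregnant CF-1 recipients, so the IVF arm combined superovulation, culture and transfer. Whole gonads at E18.5 (4 Natural and 6 IVF) and ovarian tissue at 12 weeks (4 and 5) and 39 weeks (5 and 5) were sequenced as stranded mRNA libraries. Low-input libraries came from pools of 100 primordial germ cells (PGCs) at E13.5 (4 and 5), single oocytes at 12 weeks (36 and 40) and 39 weeks (9 and 10), and pools of 100 cumulus cells at 12 weeks (5 and 5). Adult ovary libraries used a piece of 1 ovary per animal, and the oocytes and cumulus cells were collected after the F1 females had themselves been superovulated. For the fetal ovaries, the methods give the collection day of IVF pregnancies in 1 place as a day later than E18.5, and a day of age between the fetal groups could then not be told apart from conception. The 3 ovary ages were separate tables, and age and table cannot be told apart either. Natural replicate 5 of the 39-week table carries an age of 39 weeks in one label and of 40 weeks in another, and was kept.

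The ovary libraries held 6995713 to 14830788 counts at E18.5, 2839022 to 43363799 in the 12-week table and 18079970 to 38751638 in the 39-week table. PGC pools held 4364495 to 8675189 counts, cumulus pools 2532824 to 6345249, single 12-week oocytes 839781 to 10879166 and single 39-week oocytes 2820748 to 31126357. Values below are in CPM, counts relative to a library's TMM-scaled total within a table, unless the scale of a joint model of all ovaries is named. Fold changes are log2 with their standard error and are positive where IVF was higher. For comparisons between ages they are positive where the level, or the IVF effect, was higher at the later age. A gene was called at a Benjamini-Hochberg adjusted p below 0.05 over all genes tested in edgeR's quasi-likelihood test. Adult ovaries differed in how much oviduct and epithelium RNA they held. The 12 markers of that tissue summed to between 3720 and 8454 CPM in the 12-week Natural libraries, to between 103 and 3333 CPM in the 12-week IVF libraries (lowest in IVF replicate 3), to 9980 CPM in 39-week IVF replicate 1 and to between 66.7 and 278 CPM in the other 39-week libraries. Several results that rest on 39-week IVF replicate 1 are also given without it.

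Of the MMP genes, 10 lie in a single cluster on chromosome 9, from 7272514 to 7699585 in GRCm38.p6 (the assembly also called mm10), in the order Mmp13, Mmp12, Mmp1b, Mmp3, Mmp1a, Mmp10, Mmp8, Mmp27, Mmp20 and Mmp7. These include the collagenases Mmp1a, Mmp1b, Mmp8 and Mmp13, the stromelysins Mmp3 and Mmp10, the macrophage elastase Mmp12, the enamel protease Mmp20 and matrilysin, Mmp7. The binding motif of AP-1, TGAGTCA or its complement TGACTCA, was searched in the RefSeq promoter windows of 250 bases before to 50 bases after each start. Only 36 of the 55 members had a promoter entry, and the rest were not searched. The motif stood in 7 of the 10 cluster promoters and in 0 of the 26 other members with a promoter entry, and in 5.95% of the 27025 promoters of all genes. Mmp8, Mmp20 and Mmp27 lack it in this window, and no other motif was searched. The 7 sites are shown because the motif stood in most of the cluster's promoters, 5′ to 3′ on each gene's own strand, with the motif in capitals and 11 bases on either side.
Mmp13, chr9:7272468-7272496, plus strand: ccccaaagtggTGACTCAtcactatcatg
Mmp12, chr9:7347319-7347347, plus strand: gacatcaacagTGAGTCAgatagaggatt
Mmp1b, chr9:7388102-7388130, minus strand: gttacaaagccTGAGTCAtatagcctctg
Mmp3, chr9:7445765-7445793, plus strand: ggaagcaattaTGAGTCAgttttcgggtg
Mmp1a, chr9:7464057-7464085, plus strand: gttgtcaaccaTGAGTCAcatagcctctg
Mmp10, chr9:7502268-7502296, plus strand: tagcacccatgTGAGTCAtgcttagtgac
Mmp7, chr9:7692016-7692044, plus strand: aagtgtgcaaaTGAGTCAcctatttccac
In all 7 genes the motif began between 35 and 93 bases before the start. A match of letters is a description and does not show that a factor binds there.

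The genes of this cluster were scarcely expressed in the ovary. Their summed level was 0.879 to 21.3 CPM in Natural and 3.65 to 7.69 CPM in IVF ovaries at E18.5, 10.4 to 16.5 and 4.40 to 8.75 CPM at 12 weeks, and 2.45 to 9.05 and 3.86 to 12.2 CPM at 39 weeks. This was at most 0.642% of the members' summed CPM in any ovary library, a share not corrected for exon length. These sums were not tested. At 12 weeks every IVF ovary lay below every Natural one, and the oviduct markers were likewise lower in every IVF ovary. Mmp1a, Mmp1b, Mmp20 and Mmp27 had 0 counts in all E18.5 ovaries, which allows a pooled level of up to 0.0276 CPM each. The limit of 3 counts covers counting error only.

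The leading members differed between ovary ages and cell types when levels were set per kilobase of exon, the scale on which members are ranked here. In E18.5 Natural ovaries the membrane-type protease Mmp14 and the gelatinase Mmp2 led at 136 CPM per kb each (136 ± 21.9 and 136 ± 17.1, SD, n = 4), followed by the elastin cross-linking oxidase Loxl1 (98.2 ± 19.7) and the inhibitor Timp2 (95.2 ± 18.2). In 12-week Natural ovaries Timp1 led at 311 ± 170 CPM per kb (SD, n = 4), ahead of Timp2 at 92.7 ± 17.3 and Mmp14 at 74.4 ± 13.1. In Natural ovaries the 4 TIMPs together took 17.4% of the members' summed CPM per kb before birth, 51.2% in the 12-week and 50.7% in the 39-week table. In IVF ovaries they took 16.5%, 52.2% and 45.8%, the last being 42.8% without 39-week IVF replicate 1.

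In cumulus cells the inhibitors took 89.7% in Natural and 92.1% in IVF, nearly all of it Timp1, at 1632 ± 823 and 2023 ± 574 CPM per kb (SD, n = 5 each). Lox followed at 87.2 ± 24.6 CPM per kb in Natural, and the stromelysin-like protease Mmp11 at 45.6 ± 20.7. The PGC pools were led by Mmp11, at 11.3 ± 1.41 CPM per kb in Natural (SD, n = 4), and 39-week Natural oocytes by the ADAMTS-like Adamtsl1, at 24.8 ± 6.32 (SD, n = 9). In 12-week Natural oocytes, summed by library name, the mean was highest for Timp1 at 10.1 ± 7.28 CPM per kb (SD, n = 5), ahead of Adamtsl1 at 9.70 ± 0.194. Natural set 5 held 20.1 CPM of Timp1, where the next set was at 7.95 CPM. Over single Natural oocytes Timp1 had a median of 2.58 CPM and a count in 30 of 36. Adamtsl1 had a median of 121.5 CPM, not corrected for exon length, and a count in all 36. The part of cumulus RNA in the oocyte libraries was not tested. In 12-week IVF oocytes Adamtsl1 led at 10.3 ± 0.720, ahead of Timp1 at 7.47 ± 5.76. Tables were scaled separately, so the shares and the order of genes within a table carry over, but levels do not.

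**Figure D1:**
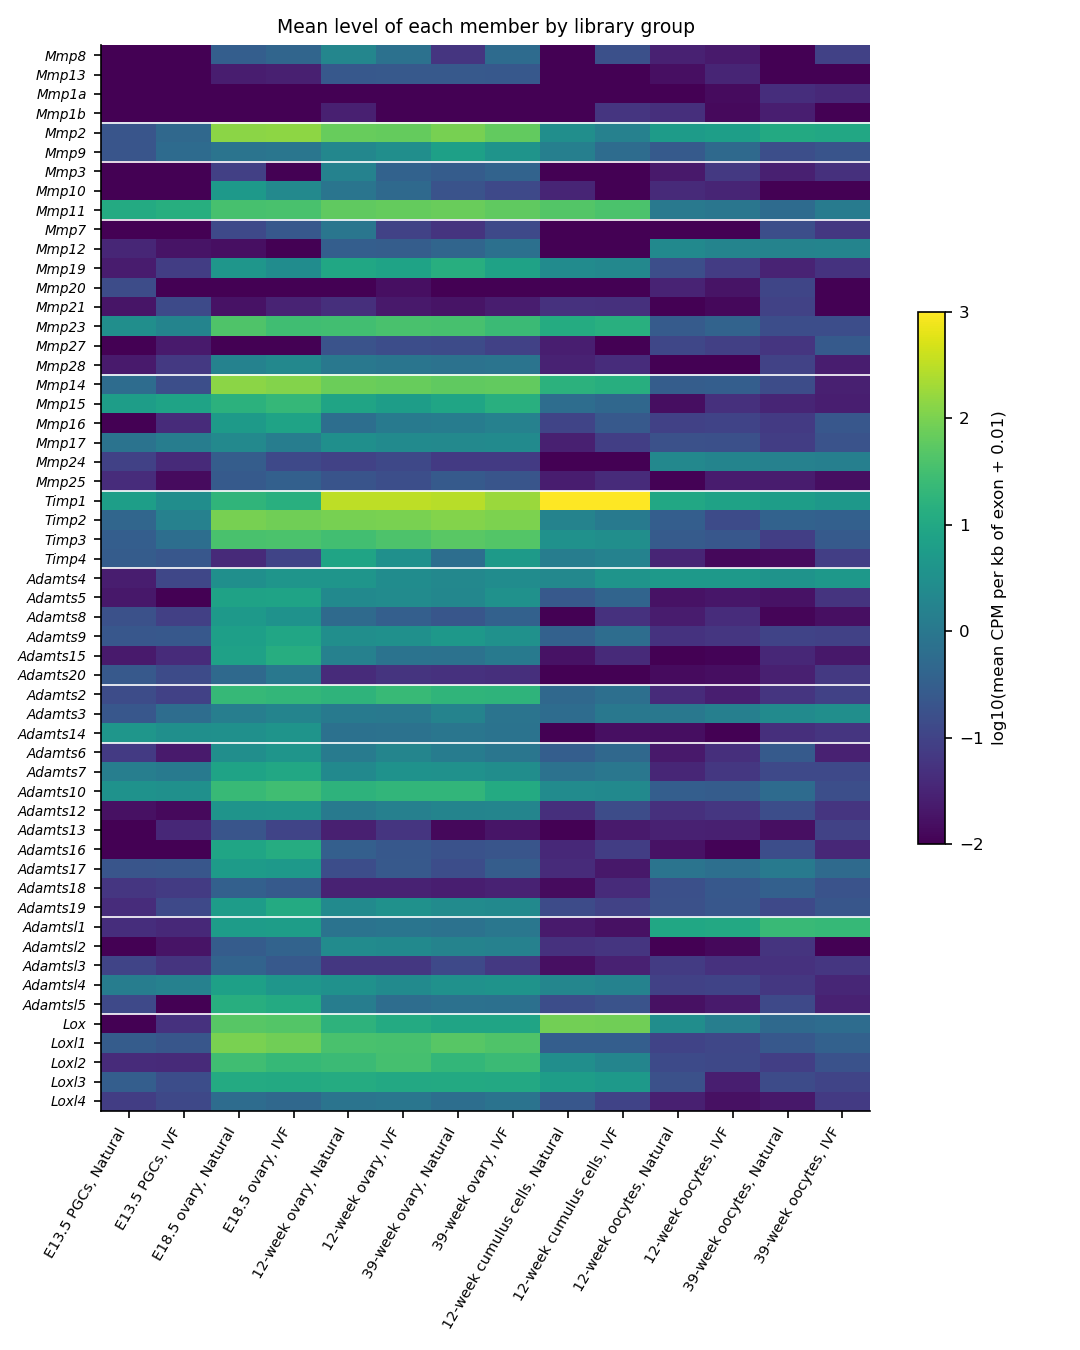
Mean level of each member (rows, by role) in each table and arm (columns), as log10 of the mean CPM per kb of exon plus 0.01, with the colour scale capped at 3. Timp1 in cumulus cells lies at the top of the scale, and the TIMPs pass from 17.4% of the summed level in E18.5 Natural ovaries to 51.2% at 12 weeks.

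Members were counted in most tables but often at low levels. Of the 55, a count in at least 1 ovary was found for 51 before birth, 54 in the 12-week and 52 in the 39-week table, and 44, 45 and 44 passed the filter on low counts and were tested. PGCs had 14 tested members, 12-week oocytes 28 and cumulus cells 23. The counts of members below are out of those tested.

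At E18.5 the protease Adamts19 rose in IVF ovaries, and the membrane-type protease Mmp17 and the ADAMTS-like Adamtsl4 fell. These were the 3 members called of 44 tested, 1 higher and 2 lower, against 5.43% of all genes called at this age, so the share of members called lay near the background. The median over the 44 was 0.05, with 24 positive and 20 negative, where the median of all genes was 0.00021. The groups did not overlap in 5 members, against 8.61% of all genes.

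Adamts19 is a protease expressed in the developing gonad. Its level was 69.8, 88.3, 59.0 and 112 CPM in the 4 Natural ovaries, and from 127 to 193 CPM with a median of 158 CPM in the 6 IVF ovaries. Every IVF ovary exceeded every Natural ovary, and the log2 fold change was 0.96 ± 0.18 (adjusted p = 0.0149). The call held in 10 of 10 fits without 1 library, with values from 0.83 to 1.14. It was lost in the alternative fit with a replicate block.

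Mmp17, also called MT4-MMP, is anchored to the cell membrane by a GPI tail (chromosome 5, 129584169 to 129611099). It was measured at 14.7, 15.3, 15.3 and 14.3 CPM in Natural ovaries and at 6.80 to 12.9 CPM, median 7.64, in IVF ovaries. All 6 IVF values lay below the narrow Natural range, and the log2 fold change was -0.80 ± 0.19 (adjusted p = 0.0332). It kept its call in 2 of 10 fits without 1 library, those without Natural replicate 1 and IVF replicate 3.

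Adamtsl4, known for binding fibrillin microfibrils (chromosome 3, 95676201 to 95687917), was at 33.1, 22.3, 26.7 and 35.3 CPM in Natural ovaries and at 11.5 to 20.7 CPM, median 19.2, in IVF ovaries. The groups again did not overlap, and the log2 fold change was -0.73 ± 0.18 (adjusted p = 0.0354). Adamtsl4 kept its call in 3 of 10 fits without 1 library, those without Natural replicate 1, Natural replicate 2 and IVF replicate 3.

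Further members stood near the threshold at E18.5. The proteoglycanase Adamts20 was at 3.31 to 5.49 CPM in Natural and 6.31 to 13.4 CPM in IVF ovaries with no overlap (log2 fold change 0.99 ± 0.29, adjusted p = 0.0592 in edgeR and 0.0126 in DESeq2). Timp1 was at 14.0 to 20.9 CPM in Natural and 10.7 to 13.6 CPM in IVF ovaries, also with no overlap (-0.44 ± 0.15, adjusted p = 0.109 in edgeR). The membrane-type Mmp15 was at 70.6 to 102 CPM against 99.3 to 130 CPM, and Mmp23, a small protease of reproductive tissues, at 75.3 to 133 CPM against 48.0 to 91.3 CPM, with overlap in both. DESeq2 called these 2 as well, at adjusted p = 0.0389 and 0.0344, and called 6 members in all (3 higher and 3 lower), against 10.6% of all genes it tested.

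By role, the 5 lysyl oxidases were all negative at E18.5 with a median of -0.21 and none called, and 5 of 6 proteoglycanases were positive with a median of 0.46 and none called. Lox was at 390 CPM in Natural replicate 1 and between 176 and 195 CPM in the other Natural ovaries, with the IVF ovaries between 191 and 253 CPM. Without Natural replicate 1, 9 members were called instead of 3, and the 6 added were Adamts9, Adamts12, Adamtsl5, Mmp15, Mmp16 and Mmp23. The remaining members fixed by role were not called: the elastin oxidase Loxl1 was at -0.24, Loxl2 at -0.35, Loxl3 at -0.08, Loxl4 at -0.21, the aggrecanase Adamts5 at 0.02, the procollagen protease Adamts2 at -0.16, Mmp2 at 0.06, Mmp9 at 0.16, Mmp11 at 0.05, Mmp14 at -0.17, Timp2 at -0.18 and Timp3 at 0.07. Mmp7, Mmp12, Mmp13 and Timp4 did not pass the filter at this age. Natural replicate 1 carried the highest Adamts17 value as well, at 65.9 CPM, where the other Natural ovaries reached 38.1 CPM.

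**Figure D2:**
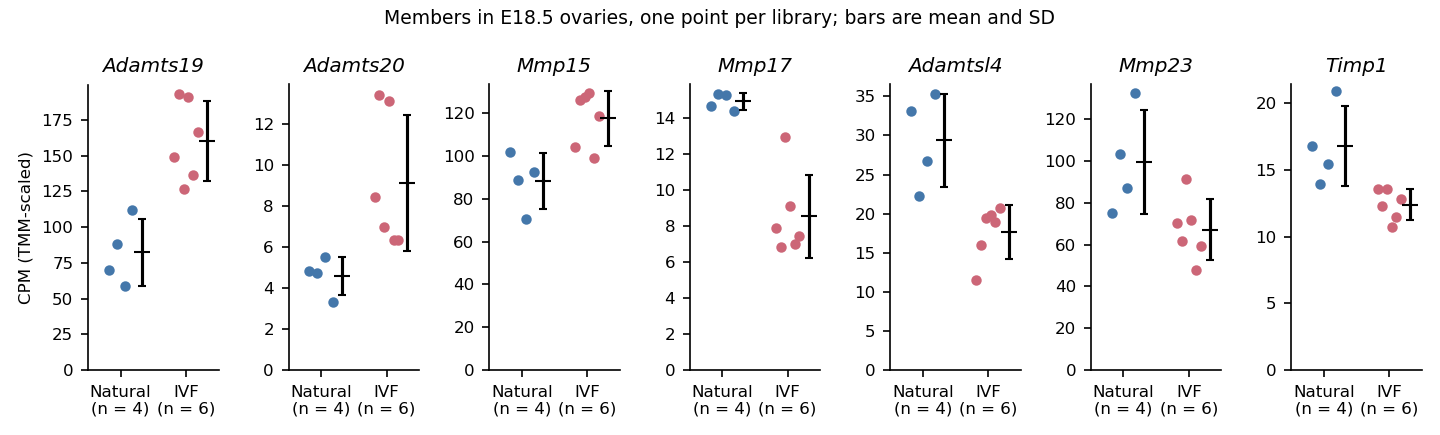
CPM of the called and near-threshold members in each E18.5 ovary (points) on axes from 0, Natural beside IVF, with a black mark for the mean and an error bar for the SD. Adamts19 lies at 127 CPM or above in all IVF ovaries and at 112 CPM or below in all Natural ovaries, and Mmp17 and Adamtsl4 show the opposite order.

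Marker genes of other cell types moved with the fetal groups. Of 5 smooth muscle markers 4 were lower in IVF ovaries and Tagln was not called, with a median of -1.10 and a summed level of 366 to 511 CPM in Natural against 150 to 255 CPM in IVF. Of 5 oocyte markers Zp3 and Gdf9 were lower and 2 were positive (median -1.67), and their summed level overlapped, at 66.4 to 235 CPM in Natural and 102 to 196 CPM in IVF ovaries. The 6 endothelial markers were all negative and 2 of them called (median -0.23), at a sum of 385 to 564 against 359 to 428 CPM, and 1 of 6 stroma markers was called lower (median -0.09). The 4 luteal markers were all positive and 1 was called (median 0.37), at 17.1 to 23.2 against 17.8 to 31.3 CPM, and the 1 theca marker tested was called higher (1.28), with sums of 0.798 to 1.29 against 1.70 to 2.66 CPM. The erythroid markers summed to 212 to 643 CPM in Natural and 514 to 1573 CPM in IVF. Their part in the E18.5 results was not tested. In bulk ovary, fewer cells of a type and less RNA per cell cannot be told apart.

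At 12 weeks no member was called of 45 tested, against 0.00567% of all genes (1 gene). An unadjusted p below 0.05 was found for 4 members, beside 2544 of the 17628 genes tested. The median over members was -0.03 and that of all genes 0.01, and the groups did not overlap in 2 members, against 6.09% of all genes. Those 2 were also the ones DESeq2 called, 1 higher and 1 lower, against 3.45% of all genes it tested.

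The higher of the 2 was Mmp16, or MT3-MMP, a membrane-type protease that can activate Mmp2. It was at 4.90, 5.04, 5.85 and 5.68 CPM in Natural ovaries and at 7.30, 11.3, 8.80, 12.2 and 8.14 CPM in IVF ovaries, so the lowest IVF ovary stood above the highest Natural one. The log2 fold change was 0.82 ± 0.20 (adjusted p = 0.158 in edgeR, 0.00902 in DESeq2). The lower was the ADAMTS-like Adamtsl5, at 6.96, 6.35, 4.93 and 6.11 CPM in Natural and 2.35, 4.52, 1.43, 2.03 and 3.88 CPM in IVF ovaries. Its log2 fold change was -1.05 ± 0.33 (adjusted p = 0.217 in edgeR, 0.0398 in DESeq2). Among the IVF ovaries Adamtsl5 was lowest in replicate 3 and highest in replicate 2, as were the oviduct markers, at 103 and 3333 CPM, whose part was not tested. Without IVF replicate 3, Adamtsl5 was at -0.88 (adjusted p = 0.301 in edgeR) and Mmp16 at 0.84 (adjusted p = 0.188).

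The inhibitors did not pass the test at 12 weeks. Timp1 overlapped fully, at 118 to 457 CPM in Natural and 166 to 458 CPM in IVF ovaries (log2 fold change 0.03), so that animals of 1 group differed from each other far more than the groups did. Timp4, an inhibitor with a narrower tissue range than the others, was at 53.5, 41.5, 82.0 and 20.7 CPM in Natural and at 18.8, 28.9, 1.84, 10.8 and 33.3 CPM in IVF ovaries (-1.36 ± 0.62, adjusted p = 0.353). The third smallest p at 12 weeks belonged to Timp3 (0.37 ± 0.16, adjusted p = 0.325). The lowest Timp4 value was that of IVF replicate 3, the 12-week library with the lowest oviduct markers. Those 12 markers were all negative at 12 weeks, with a median of -1.67 and none called, and their part in the Timp4 values was not tested. In other marker lists none was called either. Positive were 5 of 6 granulosa, 5 of 5 oocyte, 4 of 4 luteal and 2 of 2 theca markers, and 5 of 5 smooth muscle markers were negative. Granulosa sums were 1328 to 1937 CPM in Natural and 1651 to 3567 CPM in IVF ovaries. The part of these lists in the 12-week results was not tested.

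At 39 weeks no member was called of 44 tested, against 0.262% of all genes, with a median of -0.09 (all genes, 0.03). An unadjusted p below 0.05 was found for 9 members, beside 3303 of the 17186 genes tested. The groups overlapped in every member, where 5.11% of all genes showed no overlap. DESeq2 called 3 members, all lower in IVF ovaries, against 6.75% of all genes it tested.

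Those 3 were Adamts10, Mmp19 and Adamts3. Adamts10, which binds fibrillin microfibrils, was at 154, 201, 115, 181 and 137 CPM in Natural and at 58.9, 110, 96.0, 83.4 and 121 CPM in IVF ovaries (log2 fold change -0.75 ± 0.20, adjusted p = 0.111 in edgeR, 0.0186 in DESeq2). A single IVF ovary reached into the Natural range. Mmp19 was at 64.2, 49.5, 35.8, 54.4 and 33.8 CPM in Natural and at 40.4, 20.6, 23.6, 20.1 and 28.4 CPM in IVF ovaries (-0.84 ± 0.23, adjusted p = 0.116 in edgeR, 0.0215 in DESeq2). Without IVF replicate 1, the 1 IVF ovary inside the Natural range, Mmp19 was at -1.04 (adjusted p = 0.0515). Mmp19 shares 789 exon bases with Tmem198b, and whether the counting used strand is not given in the sources used here. The procollagen protease Adamts3 was at 4.79 to 14.0 CPM in Natural and 3.21 to 6.12 CPM in IVF ovaries (-1.05 ± 0.34, adjusted p = 0.150 in edgeR, 0.0360 in DESeq2). Without IVF replicate 1, Adamts10 was at -0.62 (adjusted p = 0.0957 in edgeR) and Adamts3 at -1.07 (adjusted p = 0.140).

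Marker genes of other cell types had differences at 39 weeks too, none of them called. The 6 granulosa markers were all positive (median 0.94), with sums of 702 to 1762 CPM in Natural and 1195 to 3286 CPM in IVF ovaries, and both theca markers were positive (median 2.26, sums of 1.85 to 77.2 against 2.59 to 610 CPM). The 6 endothelial markers were all negative (median -0.33, 370 to 488 against 234 to 392 CPM), as were 3 of 4 luteal markers (median -0.69, 3046 to 7024 against 1152 to 5813 CPM). Their part in the 39-week results was not tested.

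The largest positive value at 39 weeks rested on 1 library. Timp4 was at 8.63, 3.54, 2.21, 0.902 and 3.14 CPM in Natural and at 138, 1.86, 9.54, 1.20 and 4.62 CPM in IVF ovaries, with 138 CPM in IVF replicate 1. Its log2 fold change of 3.08 ± 1.28 (adjusted p = 0.232) became 0.23 without that library (adjusted p = 0.881). The neutrophil collagenase Mmp8 had the same shape, at 6.35 CPM in IVF replicate 1 and at no more than 0.225 CPM in the 9 others. The oviduct markers were positive in 12 of 12 at 39 weeks, with a median of 3.06 and none called, and IVF replicate 1 was the library at 9980 CPM.

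**Figure D3:**
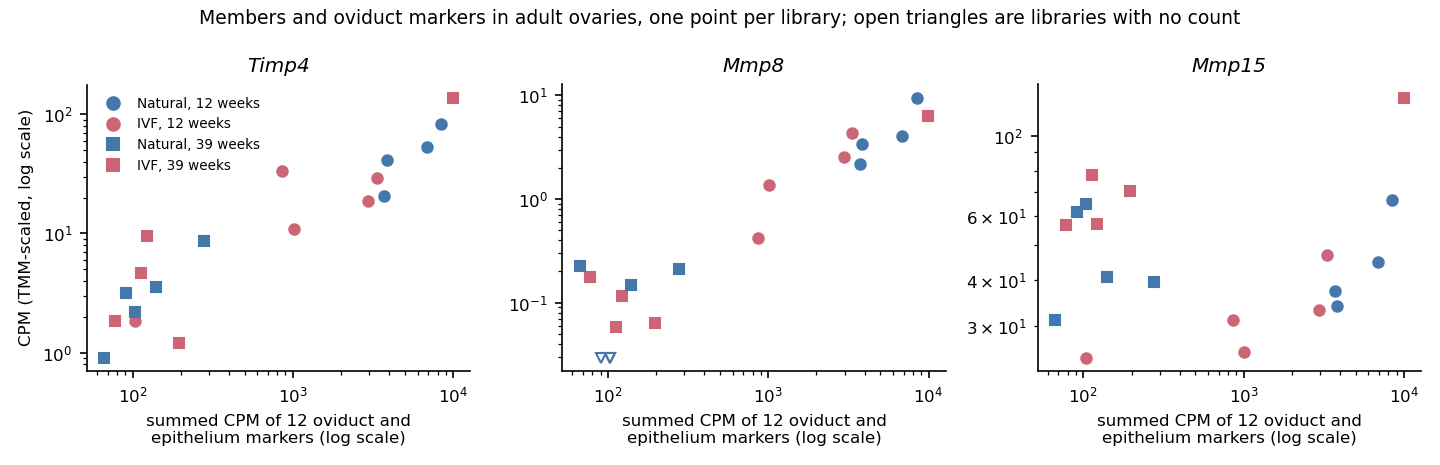
CPM of Timp4, Mmp8 and Mmp15 in each adult ovary against the summed CPM of 12 oviduct and epithelium markers, both on log axes, with open triangles for libraries with no count. Over both ages the libraries with high marker sums also have high Timp4 and Mmp8, and at 39 weeks IVF replicate 1 stands apart on both axes for Timp4 (138 CPM) and Mmp8 (6.35 CPM).

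**Figure D4:**
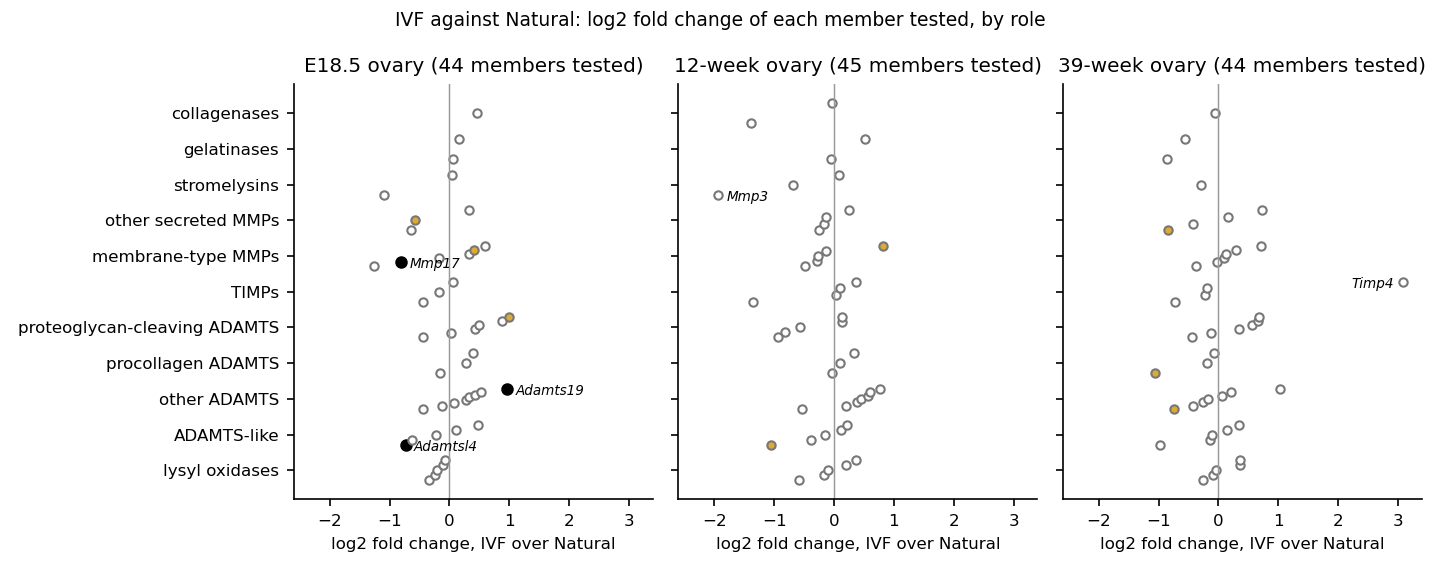
Log2 fold change (IVF against Natural) of each tested member at the 3 ovary ages, grouped by role, with black points for members called by edgeR, gold for those called by DESeq2 alone and white for neither. The black points are all at E18.5, Adamts19 at 0.96, Mmp17 at -0.80 and Adamtsl4 at -0.73.

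Whether the effect of IVF differed between ages was tested in 1 model of all 29 ovaries. Between E18.5 and 12 weeks, 0 of 49 members were called in edgeR and 0 in DESeq2, against 0.314% of all genes in edgeR. An unadjusted p below 0.05 was found for 5 members, beside 2766 of the 19724 genes tested. Between 12 and 39 weeks edgeR called 1 member, Mmp15, against 2.71% of all genes. Here 12 members had an unadjusted p below 0.05, beside 3947 of the 19724 genes tested. DESeq2 called 5 (3 higher and 2 lower), against 7.81% of all genes it tested.

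Mmp15, or MT2-MMP, is a membrane-type protease (chromosome 8, 95352268 to 95375080). At 12 weeks it was at 33.6 to 67.0 CPM in Natural and 24.4 to 46.4 CPM in IVF ovaries on the scale of the joint model, and at 39 weeks at 34.1 to 69.0 and 61.8 to 131 CPM. The lowest 39-week IVF ovary thus stood above the highest 12-week IVF ovary, while the Natural ranges of these ages overlapped. Within each table its fold change on the log2 scale came to 0.41 ± 0.12 before birth (adjusted p = 0.0656), -0.49 ± 0.24 in 12-week ovaries (adjusted p = 0.376) and 0.71 ± 0.27 in 39-week ovaries (adjusted p = 0.200). The 39-week value includes IVF replicate 1 at 127 CPM, where the next IVF ovary was at 77.8 CPM on the scale of that table.

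The difference between the 12-week and 39-week effects was 1.19 ± 0.32 (adjusted p = 0.0456 in edgeR, 0.0159 in DESeq2). Without 39-week IVF replicate 1, whose 127 CPM was the highest value of its table, it was 0.97 (adjusted p = 0.113), and the call was lost in 18 of 29 fits without 1 library. DESeq2 alone further called Timp4 (4.40) and Mmp8 (4.76) higher, and the gelatinase Mmp9 (-1.39) and Adamts10 (-0.96) lower. Without 39-week IVF replicate 1 these differences in edgeR were 1.63 for Timp4 (adjusted p = 0.422), 1.27 for Mmp8 (adjusted p = 0.722), -1.52 for Mmp9 (adjusted p = 0.103) and -0.82 for Adamts10 (adjusted p = 0.210). The oviduct markers moved with this contrast, with 7 of 12 called higher and a median of 4.76, and their part was not tested.

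From E18.5 to 12 weeks most members moved with age, in both arms. Levels in the comparisons by age are on the scale of the joint model, apart from pooled CPM. In Natural ovaries 9 members rose and 25 fell of 49 tested, against 49.7% of all genes called, and the median over members was -0.87, where that of all genes was 0.01. In IVF ovaries 14 rose and 24 fell, against 59.0% of all genes, with a median of -0.97 (all genes, 0.01). The arms did not share libraries, but they shared the tables from which each age came.

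Falls were counted in most ADAMTS proteases and membrane-type MMPs, where 24.3% of all genes fell and 25.3% rose. In Natural ovaries 8 of 9 ADAMTS without an assigned proteoglycanase or procollagen role fell, as did 5 of 6 proteoglycanases, 4 of 5 ADAMTS-like genes and 4 of 6 membrane-type MMPs. Adamts17 had the largest fall, from 31.0 to 66.3 CPM at E18.5 to 0.655 to 1.75 CPM at 12 weeks (log2 fold change -5.21, adjusted p = 8.21e-10), with no overlap. Adamts16, a protease of the fetal gonad and kidney, went from 27.4 to 75.2 CPM to 1.05 to 2.91 CPM (-4.66, adjusted p = 1.43e-09). Of the lysyl oxidases Lox (-1.47) and Loxl1 (-1.33) fell and 3 were not called. Adamts18 (-3.86), Adamts20 (-3.86) and Adamtsl5 (-3.30) completed the 5 largest falls.

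Of the 9 rises in Natural ovaries 8 were those of inhibitors and secreted MMPs, and 1 was that of an ADAMTS-like gene. Timp1 went from 12.8 to 19.2 CPM at E18.5 to 118 to 454 CPM at 12 weeks in Natural ovaries (log2 fold change 4.12 ± 0.53, adjusted p = 6.25e-07), and its fold change in IVF ovaries was 4.62 (adjusted p = 3.09e-09). Timp1 lies within an intron of Syn1. Timp4 went from 0 to 0.333 CPM to 20.6 to 82.6 CPM in Natural ovaries, a ratio of pooled CPM of 303 from 8 counts at E18.5 (95% counting interval 154 to 702), and was called higher in both arms (adjusted p = 4.88e-05 in Natural and 0.000136 in IVF). The rise of Timp4 to 12 weeks went with the oviduct markers of the 12-week Natural libraries, whose part was not tested.

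The macrophage elastase Mmp12 had 2 counts in all Natural E18.5 ovaries and 233 at 12 weeks, a ratio of pooled CPM of 54.8 (95% counting interval 15.0 to 455), and the collagenase Mmp13 had 2 and 68 counts (16.0, interval 4.26 to 135). The stromelysin Mmp3 had 6 and 268 (21.0, interval 9.53 to 57.8). All 3 were called higher in Natural ovaries, at adjusted p = 0.000252, 0.0034 and 0.0131. At E18.5 the counts of Mmp12 and of Mmp13 came from 1 Natural library each and those of Mmp3 from 2, and all were even numbers. On the scale of the joint model Mmp3 was at 0.202 to 6.98 CPM in the 12-week Natural ovaries. The lowest of these lay within its E18.5 Natural range of 0 to 0.368 CPM. The intervals, that of Timp4 included, rest on pooled counts and leave out the spread between ovaries. They also take counts as independent and would be too narrow if both reads of a pair were counted. Of the ADAMTS-like genes, Adamtsl2 alone rose, from 1.51 to 2.67 CPM to 19.3 to 23.2 CPM (log2 fold change 3.32).

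**Figure D5:**
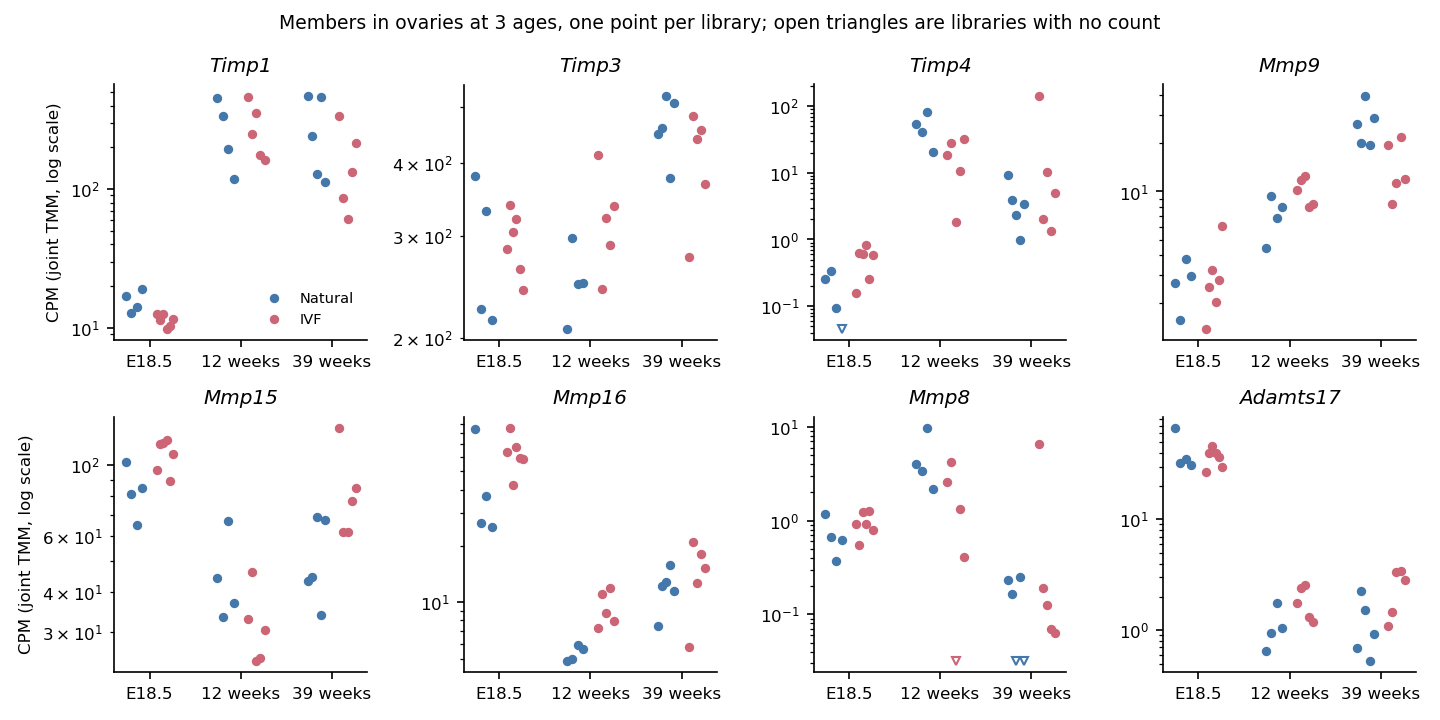
CPM of selected members in each ovary library by age, on a log axis, on the common scale of the joint model, Natural beside IVF, with open triangles for libraries with no count. Timp1 lies at no more than 19.2 CPM in Natural ovaries at E18.5 and at no less than 118 CPM at 12 weeks, while Adamts17 takes the opposite course.

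From 12 to 39 weeks the changes were fewer. In Natural ovaries 6 members rose and 2 fell, against 21.6% of all genes called, with a median of 0.15 over members and -0.0032 over all genes. In IVF ovaries 1 rose and 0 fell, against 6.19% of all genes. Neither share lay above its background.

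The largest rise in Natural ovaries was that of Mmp9, the gelatinase of leukocytes and remodelling tissue, which went from 4.42 to 9.43 CPM to 19.6 to 39.4 CPM with no overlap (log2 fold change 1.91 ± 0.35, adjusted p = 0.0007). In IVF ovaries Mmp9 went from 7.98 to 12.5 CPM to 8.32 to 21.8 CPM (0.52 ± 0.31, adjusted p = 0.361). Immune markers moved in the same Natural comparison (8 of 9 positive and 2 called higher, median 0.66), as did endothelial (6 of 6 positive and 4 called higher, median 0.72) and erythroid markers (4 of 4 called higher, median 2.82), and their part in the rise of Mmp9 was not tested. The difference between the arms, -1.39, had an adjusted p of 0.0822 in edgeR and 0.0322 in DESeq2. The other rises in Natural ovaries were in Mmp16 (1.16, adjusted p = 0.0119), Timp3 (0.89, adjusted p = 0.00138), the proteoglycanase Adamts9 (0.78, adjusted p = 0.0128), Adamts7 (0.63, adjusted p = 0.0480, lost in 16 of 29 fits without 1 library) and Timp2 (0.51, adjusted p = 0.00522). Timp3, the inhibitor that binds to matrix, shares 1733 exon bases with Syn3.

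The falls in Natural ovaries were in Mmp8 (log2 fold change -5.17, adjusted p = 0.00402) and Timp4 (-3.63 ± 0.97, adjusted p = 0.00916). All 12 oviduct markers fell in the same comparison, with a median of -3.95, and their part was not tested. In IVF ovaries Timp4 was at 0.77 and not called, and without 39-week IVF replicate 1 it fell, at -2.01 (adjusted p = 0.0387). The member that rose in IVF ovaries was Mmp15 (1.37 ± 0.23, adjusted p = 0.00156), with 1.15 (adjusted p = 0.00126) when that library was left out. Leaving it out gave 4 called members, with Mmp15 and Mmp16 higher and Mmp8 and Timp4 lower. The change of Mmp15 in Natural ovaries was 0.18 (adjusted p = 0.629).

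In PGCs no member was called of 14 tested, against 0% of all genes, with 0 members and 349 of all genes at an unadjusted p below 0.05 in edgeR and 0 called in DESeq2. The groups overlapped in all 14, where 1.18% of all genes showed no overlap. Mmp15 was at 33.2, 25.6, 36.8 and 35.7 CPM in Natural and at 35.6, 49.0, 47.4, 35.9 and 47.1 CPM in IVF pools (log2 fold change 0.39, adjusted p = 1). Timp2 was at 0 to 4.33 CPM against 2.81 to 11.1 CPM and Timp1 at 0.394 to 12.3 CPM against 0.826 to 3.78 CPM. Mmp11 was at 27.1 to 35.7 CPM in Natural and 25.8 to 51.6 CPM in IVF pools.

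The 12-week oocytes were tested as sums over sets of oocytes that share a name, 5 Natural and 5 IVF, since single oocytes of a female are not replicates. No label states the animal, so whether a set is 1 female, and what the n of 5 stands for, is not given. No member was called of 28, against 0.0277% of all genes, and 0 were called in DESeq2. An unadjusted p below 0.05 was found for 4 members, beside 963 of the 14444 genes tested. The groups did not overlap in 1 member, against 1.39% of all genes.

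Adamtsl1, also named punctin, differed little between the 12-week sets. Its level was 121, 123, 128, 125 and 123 CPM in the Natural sets and 127, 135, 121, 129 and 145 CPM in the IVF sets (log2 fold change 0.08 ± 0.10, adjusted p = 0.924), and it had counts in all 76 single oocytes, at 18.6 to 200 CPM with a median of 132. In the 39-week table, which was scaled separately, it had counts in all 19 oocytes, at 35.1 to 508 CPM with a median of 307, and the IVF oocytes spanned a 14.3-fold range. It was at no more than 0.43 CPM in cumulus pools and at no more than 1.77 CPM in PGC pools, and in ovaries it was at 49.1 to 106 CPM at E18.5 and 6.96 to 18.6 CPM in adults.

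The member without overlap was Loxl3, a lysyl oxidase, at 0.383, 0.358, 0.327, 0.25 and 2.52 CPM in the Natural sets and 0.0361, 0.183, 0, 0.163 and 0 CPM in the IVF sets (log2 fold change -3.24 ± 0.99, adjusted p = 0.699). A count of Loxl3 was found in 12 of 36 Natural and 4 of 40 IVF oocytes, so the value rests on few oocytes. Loxl3 shares 535 exon bases with Htra2. Timp2 (-1.23), Lox (-1.09) and Adamts3 (0.53) had an unadjusted p below 0.05 as well, with adjusted p from 0.699 to 0.745. Of the 76 single oocytes, 38 had a count of Timp2, 44 of Lox and 75 of Adamts3. Lox had a median of 0.44 CPM and reached 84.8 CPM in a single oocyte.

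Mmp12 was the only gene of the chromosome 9 cluster that passed the filter in oocytes. It had counts in all 76 single oocytes, at 3.21 to 39.6 CPM with a median of 14.1, and the summed level of the cluster was 11.1 to 21.6 CPM in Natural and 9.84 to 22.9 CPM in IVF sets. Of its 7.24 kb of exon, Mmp12 shares 157 bases with Mmp1b, and counts in that stretch cannot be assigned. Mmp1b had a count in 2 of the 76 oocytes. The gelatinase Mmp2 and the proteoglycanase Adamts4 likewise had counts in all 76 oocytes, with medians of 17.1 and 21.9 CPM. The 39-week oocytes were not tested, because no label ties them to animals, and of these 3 genes each had a count in all 19.

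In cumulus cells no member was called of 23, against 0.00973% of all genes, with 4 at an unadjusted p below 0.05 and 0 called in DESeq2. The groups overlapped in all 23, where 0.759% of all genes showed no overlap. Timp1 was at 619, 692, 2055, 1824 and 2056 CPM in Natural and at 2125, 2467, 1773, 1263 and 1353 CPM in IVF pools (log2 fold change 0.46 ± 0.19, adjusted p = 0.723). The library names form 2 sets, and the set was a term of the fit. In the set of Natural pools 1 and 2 and IVF pools 4 and 5, Timp1 was at 619 and 692 CPM against 1263 and 1353 CPM, and in the other set the groups overlapped, at 1824 to 2056 CPM against 1773 to 2467 CPM. Lox was at 287 to 593 CPM in Natural and 212 to 935 CPM in IVF pools. The name of Natural pool 5, which held the highest Natural values of Timp1 and Lox, has parts in common with an IVF oocyte set. With that pool left out, Timp1 was at 0.52 (adjusted p = 0.747), Adamts4 at 0.72 (adjusted p = 0.867) and Loxl2 at -0.77 (adjusted p = 0.683). With all pools Adamts4 (0.87), Adamts9 (0.77) and Loxl2 (-0.65) had adjusted p from 0.719 to 0.821.

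Genes that work beside the members were followed in 3 lists, the plasminogen system and other regulators, collagen processing, and matrix proteins other than collagen. At E18.5 the matrix list had 2 higher and 2 lower of 23 tested, with a median of -0.32, beside 5.43% of all genes called. Acan, the proteoglycan aggrecan, rose (log2 fold change 1.60, adjusted p = 0.0197), as did the thrombospondin Thbs2 (0.52, adjusted p = 0.0379), and the microfibril protein Mfap5 (-1.30, adjusted p = 0.0228) and the proteoglycan Bgn (-0.66, adjusted p = 0.0264) fell. In the plasminogen list 0 rose and 2 fell of 16, Bsg, an inducer of MMPs (-0.42, adjusted p = 0.0327), and the serine protease inhibitor Serpine2 (-0.57, adjusted p = 0.0354). Of collagen processing 0 of 14 were called, with P4ha1, a prolyl hydroxylase of collagen, nearest (-0.56, adjusted p = 0.0534).

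In adult ovaries the same lists held 1 call. At 12 weeks edgeR called 0 of 55 genes in the 3 lists, and the smallest p of each list belonged to Spock1 (-2.70, adjusted p = 0.110), Tll1 (-1.44, adjusted p = 0.253) and Fbln2 (-0.79, adjusted p = 0.152). DESeq2 called Spock1 (adjusted p = 8.38e-06) and Fbln2 (adjusted p = 0.00564) of these 3. At 39 weeks Plau, the urokinase that activates plasminogen, was lower in IVF ovaries (log2 fold change -0.84, adjusted p = 0.0409), 1 of 14 in its list, and 0 of 16 and 0 of 23 were called in the others, where Pcolce (-0.69, adjusted p = 0.142) and Lum (-0.97, adjusted p = 0.0676) came nearest. In PGCs, 12-week oocytes and cumulus cells edgeR called 0 genes of the 3 lists. The smallest p of each list belonged to Plod1 (0.82), Fbln2 (-1.26) and A2m (2.44) in PGCs, to Pcolce2 (0.70), Eln (1.26) and Adam10 (-0.50) in oocytes, and to Serpinh1 (-0.95), Tnc (0.56) and Plau (0.39) in cumulus cells, at adjusted p from 0.662 to 1. From E18.5 to 12 weeks in Natural ovaries the matrix list had 3 higher and 13 lower of 23 (median -1.14), while collagen processing had 6 higher and 6 lower of 16 (median -0.01) and the plasminogen list 5 higher and 2 lower of 16 (median 0.21), beside 49.7% of all genes called.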

How the data were processed

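The authors deposited whole-number read counts per gene name without normalization, in 7 tables. The submitters' processing notes name Trimmomatic 0.32, STAR 2.3.0e, featureCounts 1.5.0 and mm10. Whether counting used strand or fragments is not given in the sources used here, and 55.4% to 79.0% of nonzero counts per library were even.

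Samples were grouped by their GEO labels. Each table was fitted on its own with edgeR 4.0.16 in R 4.3.3 (TMM, default expression filter, quasi-likelihood test, two-sided, adjusted p below 0.05 over all genes), and the 29 ovaries were also fitted together for age. Single 12-week oocytes were summed by the set in their names. The cumulus fit held the set of library names as a term, and leaving out that term, or 1 Natural library named partly like IVF oocytes, were alternatives. The 39-week oocytes were not tested. Nothing in the labels states that all replicates came from separate litters. The methods describe the ovary libraries as drawn from different litters, and allow a limited number of littermates in the adult cohorts. They also give more individuals per group than the 4 Natural ovaries at E18.5 and at 12 weeks. The p-values measure the spread between these samples. Sampling depth limits what can be seen of members with few counts. Alternatives were DESeq2 1.42.0 with and without a fold minimum of 1.5, other size factors, no filter, leaving out each library and a replicate block. The steps were tested on simulated counts.

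The members and lists were chosen with earlier results of these data known. Named were members called by edgeR or DESeq2, the 3 with the smallest p per comparison, 20 fixed by role, the 5 largest called changes with age in each direction, and per pathway list the called genes and the smallest p; other members stand for values that single them out (no overlap, a library far from the rest, a leading level) and were chosen after their values were seen. One further name matching the pattern was left out by the rule and is not reported here. Levels per kb used exon lengths of the GENCODE annotation of GRCm38.p6.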

Additional observations from a re-analysis of the deposited data

Results flagged for a closer look

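Groups of 4 to 10 libraries were examined for a library far from the nearest other by Dixon's criterion. There were 262 groups, of which chance picks about 1 in 20. They did not cover every member in every table and arm, so a library not listed here can stand as far from the rest. In E18.5 ovaries Natural replicate 1 was high for Adamts17 (65.9 CPM, next 38.1), Lox (390 CPM, next 195) and Mmp13 (0.167 CPM, next 0), Natural replicate 2 for Mmp12 (0.181 CPM, next 0), IVF replicate 5 for Mmp13 (0.280 CPM, next 0) and IVF replicate 3 for Mmp14 (1104 CPM, next 728). The Mmp12 and Mmp13 values stand for a few reads. In 12-week ovaries IVF replicate 5 was high for Loxl3 (83.5 CPM, next 44.5). In 39-week ovaries IVF replicate 1 was high for Adamts4 (27.1 CPM, next 11.2), Adamtsl1 (18.6 CPM, next 11.3), Lox (72.6 CPM, next 36.1), Mmp8 (6.35 CPM, next 0.176) and Timp4 (138 CPM, next 9.54), IVF replicate 4 was high for Loxl3 (87.3 CPM, next 43.2) and IVF replicate 3 was low for Timp2 (338 CPM, next 405). Not flagged, but also well above the other IVF ovaries in IVF replicate 1, were Adamts15 (25.6 CPM, next 10.6), Adamts8 (4.67 CPM, next 1.28) and Mmp3 (2.59 CPM, next 0.408).

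In PGCs Natural replicate 2 was high for Adamts19 (1.58 CPM, next 0.246). Not flagged, but also well above the other Natural pools in that replicate, were Loxl1 (3.25 CPM, next 0.220), Mmp14 (11.8 CPM, next 1.32) and Adamts20 (7.48 CPM, next 0.881). Among the 12-week oocyte sets Natural set 5 was high for Loxl3 (2.52 CPM, next 0.383) and Timp1 (20.1 CPM, next 7.95), Natural set 2 was high for Mmp2 (36.1 CPM, next 17.5) and IVF set 2 was low for Adamts3 (5.01 CPM, next 8.26). In cumulus cells IVF replicate 3 was high for Lox (935 CPM, next 326). For Mmp15 the effect of IVF differed between 12 and 39 weeks by a tested difference of 1.19 on the log2 scale.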

How the results depend on the processing

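Counts of members called moved as follows. At E18.5, where edgeR called 3, DESeq2 called 6, the fit with a replicate block 0, and fits without 1 library 1 to 9. DESeq2 called 2 at 12 weeks and 3 at 39 weeks, where edgeR called 0, and the same 2 and 3 with the fold minimum. For IVF ovaries from 12 to 39 weeks, where edgeR called 1, DESeq2 called 3, with the fold minimum 3, the replicate block 2, and fits without 1 library 1 to 4. For the difference of the IVF effect between these ages, where edgeR called 1, DESeq2 called 5, with the fold minimum 5, other size factors (RLE) 0, no filter 0, the replicate block 0, and fits without 1 library 0 to 4. The Mmp15 difference lost its call without E18.5 Natural replicate 2, without any of the 6 E18.5 IVF libraries, without 12-week Natural replicates 1 and 3 and IVF replicates 1, 3, 4 and 5 in turn, and without 39-week Natural replicates 1, 2, 4 and 5 and IVF replicate 1 in turn. No called member changed direction in these settings. For single named members the settings were the tool, size factors, filter, block and library sets, and in cumulus cells the Natural pool left out. The fits without 1 library that gave the lowest and the highest fold change were counted with them. Over all of these, 277 values kept direction and side of the threshold, 26 came to pass it and 11 no longer did.

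Same-numbered libraries correlated in their deviations from -0.36 to 0.54, and not above 0.1 in every pair of any table, so the numbers were not taken as pairs. The blocks' effect on the counts is given above. No alternative was run for the 39-week oocytes. Members with few counts did not pass the filter and were not tested.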
